A study of Rattus norvegicus with 12 samples.

Results

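Among the genes for fatty acid activation and phosphatidylcholine remodelling in stored rat red blood cells (RBCs), *Acsl1* averaged 6.93 CPM in Cont, 16.1 CPM at 10 d and 14.7 CPM at 20 d of storage, while *Acsl5* and *Lpcat2* were lower at 20 d than in Cont. The set holds 9 of the 29539 genes of the deposited table, namely the long-chain acyl-CoA synthetases *Acsl1*, *Acsl3*, *Acsl4*, *Acsl5* and *Acsl6* and the lysophosphatidylcholine acyltransferases *Lpcat1*, *Lpcat2*, *Lpcat3* and *Lpcat4*. The 9 genes were taken by symbol, and the set was chosen because *Acsl1* rises with storage, so the values of *Acsl1* are given as a description without a test. Whole blood of wild type male Wistar rats aged 11 weeks was mixed with CPDA, an anticoagulant and preservative solution, and was kept at 4 °C for 10 days (10 d) or 20 days (20 d) or not stored (Cont, 0 d). RBCs were then purified with 5 washes and their rRNA-depleted total RNA was sequenced, with 4 libraries for each storage condition. Each animal gave an aliquot to each of the 3 storage conditions, but no source names the animal of a library. The tests therefore took the libraries as independent, and their p-values measure only the spread between libraries. Stored blood was purified after its storage and Cont blood without it, so that the day of purification and the storage time cannot be told apart.

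Free fatty acids enter lipid metabolism only after they are joined to coenzyme A, a step catalysed by the ACSL enzymes. The LPCAT enzymes use the acyl-CoA to put a new acyl chain on a lysophospholipid from which a phospholipase A has removed one, and this cycle of removal and return is known as the Lands cycle. Mature RBCs have no nucleus and do not make fatty acids, and they are known to renew the acyl chains of their membrane phospholipids through this cycle.

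The regions just before the annotated starts of *Acsl1* and *Lpcat2* are shown because these genes had the largest rise and the largest fall against Cont of the set. All 9 genes were matched in the RefSeq promoters of the build GRCr8, and the 250 bases before the start were read. The *Acsl1* region is chr16:52532393-52532642 and the *Lpcat2* region is chr19:30325577-30325826, both on the minus strand, written 5′ to 3′ with a match to CCAAT or its reverse complement ATTGG in capitals.
Acsl1: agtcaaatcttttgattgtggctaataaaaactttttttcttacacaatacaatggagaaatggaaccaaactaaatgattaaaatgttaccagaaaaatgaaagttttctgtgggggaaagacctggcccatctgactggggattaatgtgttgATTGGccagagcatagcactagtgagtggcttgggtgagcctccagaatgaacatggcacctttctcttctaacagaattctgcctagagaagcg
Lpcat2: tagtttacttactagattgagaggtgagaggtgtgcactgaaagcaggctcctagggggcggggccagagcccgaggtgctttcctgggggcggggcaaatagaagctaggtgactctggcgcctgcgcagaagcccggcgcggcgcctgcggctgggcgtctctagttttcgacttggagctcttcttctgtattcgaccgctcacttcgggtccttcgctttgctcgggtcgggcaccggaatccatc
The *Acsl1* region had a GC content of 40.0% and 1 CpG dinucleotide, the *Lpcat2* region had 60.8% and 19, and the medians of all 33469 RefSeq promoters of that length were 51.2% and 5. The other 7 regions had 50.4% to 72.4% GC, so *Acsl1* had the lowest GC content of the 9. CCAAT or ATTGG was found in 34.0% of all promoters, GATAA or TTATC in 23.5% and GAGGAA or TTCCTC in 23.3%. *Acsl1* held 1 ATTGG from −95 to −91, *Acsl3* held 1 CCAAT and *Lpcat4* held 1 ATTGG, and *Lpcat3* held 3 matches to this motif. *Lpcat1* held 1 TTATC, and no letters of these motifs were found in the windows of *Lpcat2*, *Acsl4*, *Acsl5* and *Acsl6*. A match is a description of the letters only, and the libraries hold no information on the start that was used.

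The libraries had 65735930 to 85996710 counts, and the 4 most abundant genes took 83.7% to 88.0% of them, so that the 9 genes together received 1391 to 1883 counts in a library. Of the 20 red cell and reticulocyte genes in the table, which include the globins and the spectrins, all 20 were counted in enough libraries to be tested. Of them 18 were higher and 0 lower at 10 d than in Cont, and 15 were higher and 1 lower at 20 d. Of all genes tested, 7.87% were higher and 5.67% lower at 10 d, and 12.8% were higher and 21.1% lower at 20 d. The median log2 fold change of the list was 0.45 at 10 d and 0.41 at 20 d, and with library size alone in place of the composition factor (TMM) it was 0.08 and 0.03. Library size alone shifted the median log2 fold change of all genes against Cont to −0.35 at 10 d and −0.39 at 20 d, so changes against Cont are relative to the scaling. The red cell list was thus counted throughout, and the general leukocyte gene *Ptprc* (CD45) was also counted, at 9.91 to 21.6 CPM in Cont, 7.08 to 10.5 CPM in 10 d and 1.44 to 3.35 CPM in 20 d.

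*Acsl1* had the highest TPM of the 9 genes in each storage condition. Levels of different genes were compared in TPM, the deposited value per gene length, and levels of 1 gene between libraries in CPM, the counts relative to the TMM-scaled total of the library. In Cont, *Acsl1* had a mean of 4.44 ± 0.735 TPM (SD, n = 4) and was followed by *Lpcat3* with 3.12 ± 0.554 TPM. The ranges of these neighbours overlapped, although *Acsl1* was above *Lpcat3* in 4 of 4 libraries. *Acsl4* followed with 1.14 TPM and *Lpcat1* with 0.850 TPM, and *Lpcat2* with 0.736 TPM, *Acsl5* with 0.487 TPM and *Acsl3* with 0.282 TPM came next, where each of the neighbours from *Lpcat1* to *Acsl3* had overlapping ranges. *Lpcat4* with 0.0162 TPM and *Acsl6* with 0 TPM closed the order. At 10 d the 4 highest genes were the same in the same order, with 7.83 ± 0.830 TPM for *Acsl1*, 2.43 for *Lpcat3*, 0.917 for *Acsl4* and 0.606 for *Lpcat1*, and at 20 d with 6.62 ± 0.414, 2.42, 0.991 and 0.604 TPM. In stored blood the ranges of these 4 neighbours did not overlap. *Lpcat2* was the fifth gene in Cont, the sixth at 10 d with 0.201 TPM and the seventh at 20 d with 0.150 TPM, where its range overlapped that of *Acsl5*, which had 0.160 TPM.

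**Figure D1:**
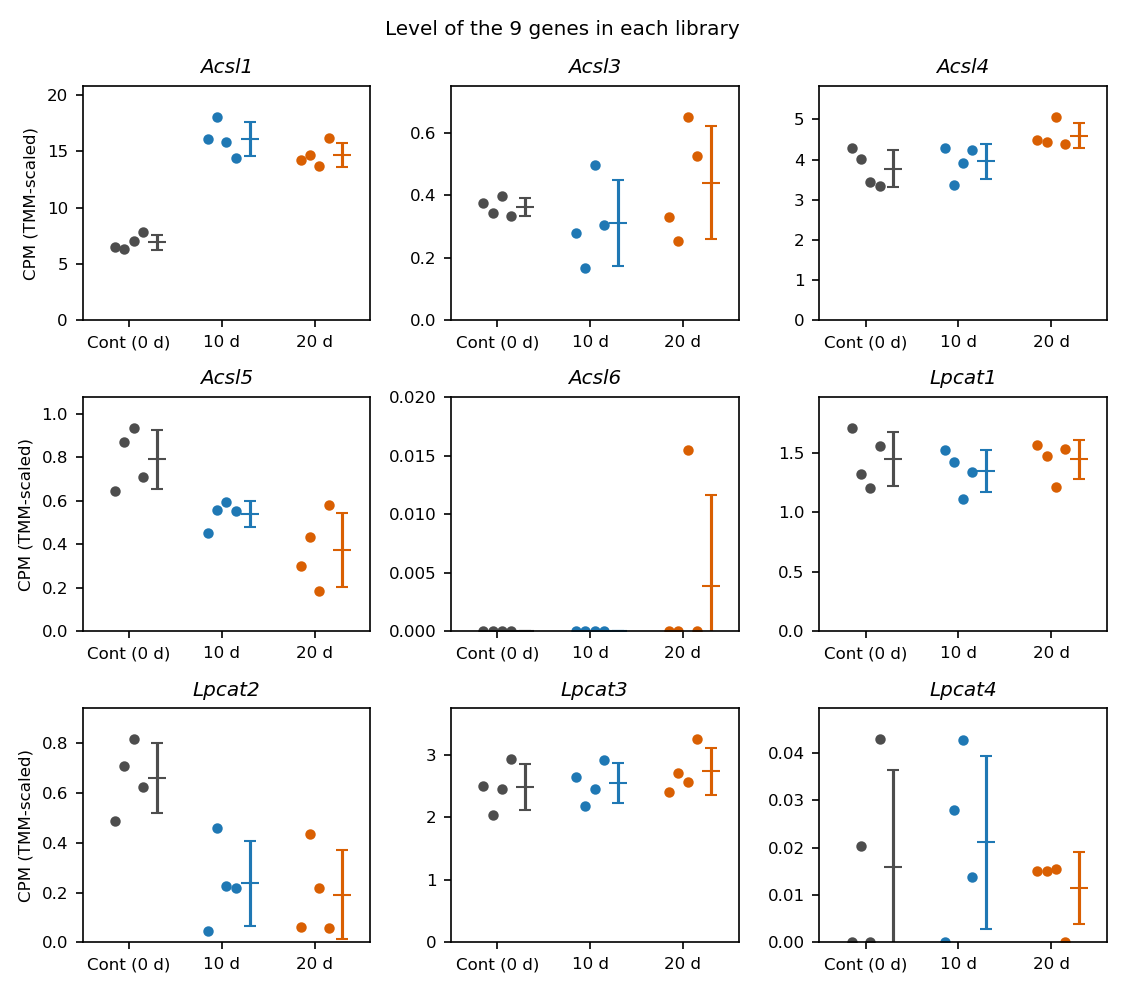
Level of each of the 9 genes in each library, as CPM scaled by TMM on the y axis, with the 3 storage conditions on the x axis. Points are libraries, and the bar beside them is the mean with the SD (n = 4). The stored libraries of *Acsl1* sit between 13.7 and 18.1 CPM, above all Cont libraries, and those of *Lpcat2* all sit below the Cont libraries.

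*Acsl1* lies at chr16:45755254-45821541 on the minus strand of mRatBN7.2 and is the main acyl-CoA synthetase of liver, fat and heart. It had 6.55, 6.32, 7.03 and 7.81 CPM in Cont, 16.1, 18.1, 15.8 and 14.4 CPM at 10 d and 14.2, 14.6, 13.7 and 16.2 CPM at 20 d. All stored libraries were above all Cont libraries, as were those of 9.63% of all genes tested at 10 d and 11.4% at 20 d, and the libraries of 20 d and 10 d overlapped. The counts behind these values were 578 to 727 in Cont, 1047 to 1297 at 10 d and 885 to 1144 at 20 d. The fitted log2 fold change was 1.22 (SE 0.09) at 10 d and 1.09 (SE 0.09) at 20 d against Cont, and −0.13 (SE 0.09) at 20 d against 10 d. Scaled by library size alone, *Acsl1* had 0.86 and 0.69 against Cont. The red cell list had medians of 0.45 and 0.41 with TMM, and of 0.08 and 0.03 with library size alone. With TMM, the neutrophil and monocyte lists had medians of −1.48 and −2.02 at 10 d and −3.58 and −3.33 at 20 d.

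Ratios of reads within a library do not depend on the scaling between libraries. *Acsl1* reads per *Acsl4* read were 1.53 to 2.35 in Cont, 3.40 to 5.38 at 10 d and 2.71 to 3.69 at 20 d. *Acsl1* reads per *Lpcat3* read were 2.62 to 3.10 in Cont, 4.94 to 8.31 at 10 d and 4.97 to 5.91 at 20 d. Neither ratio overlapped between stored and Cont libraries. Both ratios hold *Acsl1*, whose rise chose the set, so they are a description and no independent support for that rise. *Lpcat3* reads per *Lpcat1* read were 1.46 to 2.04 in Cont, 1.53 to 2.22 at 10 d and 1.54 to 2.13 at 20 d, with ranges that overlapped. Of the summed TPM of the 5 synthetases, *Acsl1* held 66.6% to 74.5% in Cont, 83.2% to 88.5% at 10 d and 80.1% to 83.7% at 20 d.

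**Figure D2:**
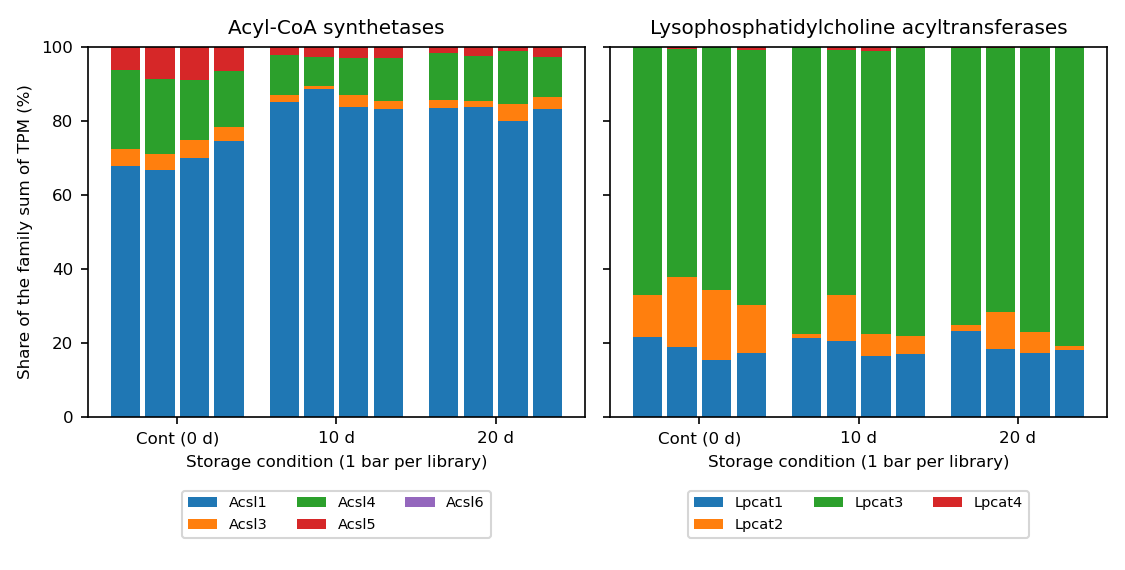
Share of each gene in the summed TPM of its family, in percent on the y axis, with 1 stacked bar per library grouped by storage condition on the x axis (left, the 5 acyl-CoA synthetases and right, the 4 acyltransferases). The share of *Acsl1* is between 80.1% and 88.5% in the stored libraries and at most 74.5% in Cont, and *Lpcat3* holds most of the right panel in each library.

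Of the 9 genes, 7 passed the filter on low counts, among 8382 genes in all, and 6 of the 7 were tested, since *Acsl1* chose the set. At 20 d, 2 of the 6 genes were lower than in Cont at an adjusted p under 0.05 (edgeR's quasi-likelihood test, Benjamini-Hochberg over all genes tested) and 0 were higher, where 33.9% of all genes tested were called, 21.1% lower and 12.8% higher. At 10 d, 0 of the 6 were called against Cont by this test, where 13.5% of all genes tested were. Of the 6, 1 (*Lpcat2*) had an unadjusted p under 0.05. These fits left out the replicate number, which may stand for the animal, although no source says so. The fit with the replicate number as a block called *Lpcat2* lower at 10 d (adjusted p = 0.00385). The block fit also called *Acsl4* higher at 20 d against Cont (adjusted p = 0.0386). Of all 8382 genes tested, the block fit called 928 higher and 639 lower at 10 d, and 1372 and 1842 at 20 d. DESeq2 called *Lpcat2* as lower at 10 d (adjusted p = 0.0407), where it called 649 of all 8382 genes tested lower and 606 higher. Between 20 d and 10 d, 0 of the 6 were called by edgeR or DESeq2 and 0 had an unadjusted p under 0.05, where edgeR called 15.9% of all genes tested. The test among the 3 storage conditions at an adjusted p under 0.0001 called 0 of the 6 by edgeR, which called 6.13% of all genes, and 0 of the 6 by DESeq2, and 3 of the 6 had an unadjusted p under 0.05 by edgeR.

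**Figure D3:**
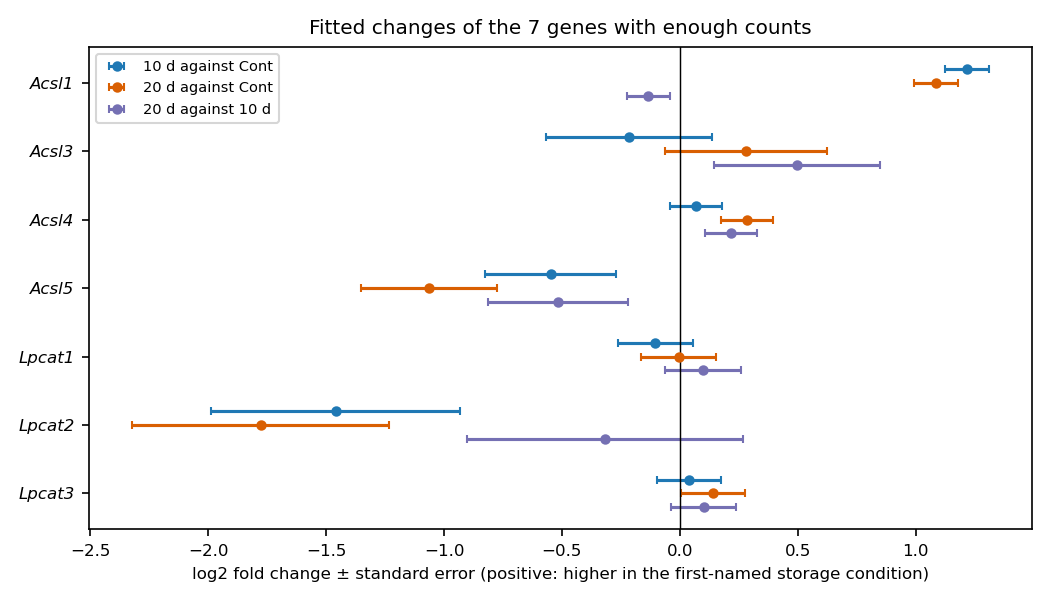
Fitted log2 fold changes of the 7 genes that passed the filter on low counts (x axis, log2 scale), with 1 row per gene. Points are estimates and bars the standard errors for the 3 pairs of storage conditions. *Acsl5* and *Lpcat2* lie left of 0 in both comparisons with Cont, and the bars of *Acsl3* and *Lpcat1* reach across 0 in both.

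Among the other synthetases, *Acsl4* was the most abundant. *Acsl4* (chrX:105942799-106006427, minus strand) prefers arachidonic acid and other polyunsaturated fatty acids and is known for its part in ferroptosis. It had 4.48, 4.44, 5.07 and 4.39 CPM at 20 d, against 4.29, 4.01, 3.44 and 3.33 CPM in Cont. The 10 d libraries had 4.29, 3.36, 3.92 and 4.25 CPM. The 20 d libraries were all above those of Cont and of 10 d, which was so for 11.4% of all genes tested at 20 d against Cont and for 6.25% at 20 d against 10 d. The log2 fold change was 0.28 at 20 d against Cont (SE 0.11, adjusted p = 0.0533 by edgeR) and 0.22 at 20 d against 10 d (SE 0.11, adjusted p = 0.206), and neither passed the test. Scaling by library size alone turned the comparison of 20 d with Cont to −0.09.

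*Acsl5* (chr1:254292521-254336607, plus strand) is bound to mitochondria and the endoplasmic reticulum and is known from the intestine. It fell at 20 d, with 0.301, 0.435, 0.186 and 0.581 CPM, against 0.646, 0.871, 0.937 and 0.709 CPM in Cont, from 12 to 41 counts per library at 20 d and 57 to 86 in Cont. The 10 d libraries had 0.454, 0.558, 0.597 and 0.552 CPM and overlapped with those of 20 d. Neither the 10 d nor the 20 d libraries overlapped with Cont, where libraries of 8.17% of all genes at 10 d and of 20.0% at 20 d lay wholly below Cont. The log2 fold change was −1.06 at 20 d (SE 0.29, adjusted p = 0.00776 by edgeR) and −0.55 at 10 d (SE 0.28, adjusted p = 0.236), and at 20 d against 10 d it was −0.52 (SE 0.30, adjusted p = 0.265). *Acsl5* overlaps *Zdhhc6* on the other strand, which had 234 counts in all libraries together, and the use of strand in the counting is not given in the sources used here.

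*Acsl3* (chr9:80115112-80164627, plus strand) is known for its part in lipid droplets. It had 0.374, 0.344, 0.398 and 0.333 CPM in Cont, 0.278, 0.167, 0.498 and 0.303 CPM at 10 d and 0.331, 0.255, 0.651 and 0.524 CPM at 20 d. The stored libraries spread on both sides of Cont, and the log2 fold change was 0.28 at 20 d against Cont (SE 0.34, adjusted p = 0.575 by edgeR). These values rest on 12 to 42 counts per library, and an unnamed gene that overlaps *Acsl3* on the same strand had 157 counts over all libraries. *Acsl6* (chr10:38440080-38498757, plus strand), a synthetase known from brain and, in humans, from erythroid cells, had 0 counts in Cont and in 10 d and 1 count in 20 d, in replicate 3. A count of 0 allows up to 3 counts, so no difference was detectable at this depth.

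Among the acyltransferases, *Lpcat3* was the most abundant. *Lpcat3* (chr4:157468290-157509880, plus strand) puts polyunsaturated chains on lysophosphatidylcholine. It had 2.50, 2.04, 2.46 and 2.93 CPM in Cont, 2.64, 2.17, 2.46 and 2.92 CPM at 10 d and 2.40, 2.71, 2.56 and 3.26 CPM at 20 d. The libraries of the 3 storage conditions overlapped. The log2 fold change was 0.14 at 20 d against Cont (SE 0.14, adjusted p = 0.470 by edgeR) and 0.04 at 10 d (SE 0.14, adjusted p = 0.916), and both signs turned with library size alone (−0.24 and −0.32). *Lpcat3* overlaps *Emg1* on the other strand, which had 121 counts over all libraries.

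*Lpcat1* (chr1:29766071-29816401, minus strand) is known from lung, where it makes the saturated phosphatidylcholine of surfactant. It had 1.71, 1.32, 1.21 and 1.56 CPM in Cont, 1.52, 1.42, 1.11 and 1.34 CPM at 10 d and 1.56, 1.47, 1.21 and 1.53 CPM at 20 d. The libraries overlapped, and the log2 fold change was −0.10 at 10 d (SE 0.16, adjusted p = 0.765 by edgeR) and −0.0042 at 20 d (SE 0.16, adjusted p = 0.988). With library size alone *Lpcat1* passed the test as lower, at −0.45 for 10 d (adjusted p = 0.0300) and −0.38 for 20 d (adjusted p = 0.0448).

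*Lpcat2* (chr19:14089686-14152829, minus strand) makes platelet-activating factor as well as phosphatidylcholine and is known from macrophages and neutrophils. It had 0.0601, 0.435, 0.217 and 0.0567 CPM at 20 d, against 0.487, 0.709, 0.820 and 0.623 CPM in Cont. These values rest on 4, 29, 14 and 4 counts at 20 d and 43, 70, 70 and 58 counts in Cont. The 10 d libraries had 0.0440, 0.460, 0.227 and 0.221 CPM, from 3, 33, 16 and 16 counts. All stored libraries were below all Cont libraries, as were those of 8.17% of all genes tested at 10 d and 20.0% at 20 d. The stored libraries spread more than those of Cont. *Lpcat2* fell at 20 d (log2 fold change −1.78, SE 0.55, adjusted p = 0.0171 by edgeR), and at 10 d it had −1.46 (SE 0.53, adjusted p = 0.0791). Without replicate 1 or replicate 4 of 20 d the adjusted p at 20 d was 0.0521 or 0.0536, and without replicate 2 of 10 d the adjusted p at 10 d was 0.0339. Its share in the summed TPM of the 4 acyltransferases was 11.4% to 19.1% in Cont, 1.13% to 12.3% at 10 d and 1.22% to 9.97% at 20 d. *Lpcat4* (chr3:99044729-99052875, plus strand), which also acts on lysophosphatidylethanolamine, had 6 counts over the 4 libraries of Cont, 6 over those of 10 d and 3 over those of 20 d, with 0 to 4 counts in a library, and was not tested.

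Markers of each leukocyte type were lower at 20 d than in Cont, as *Acsl5* and *Lpcat2* were. The median log2 fold change at 20 d was −3.58 for neutrophil, −3.33 for monocyte, −5.77 for T cell, −3.46 for B cell and −3.57 for NK cell genes. At 10 d the neutrophil, monocyte, T cell and NK cell sums were lower than in Cont, while B cell markers were not. The 16 neutrophil genes had a summed level of 44.2 to 72.0 CPM in Cont, 10.4 to 35.0 CPM at 10 d and 2.93 to 7.60 CPM at 20 d, with *Mpo* at 0 in all libraries. Of the 8 tested, 5 were lower at 10 d and 8 at 20 d. Of all genes tested, 7.87% were higher and 5.67% lower at 10 d than in Cont, and 21.1% were lower at 20 d. The 9 monocyte genes had a summed level of 39.6 to 71.2 CPM in Cont, 3.87 to 18.5 CPM at 10 d and 1.37 to 3.05 CPM at 20 d, and the 3 tested were lower at both times. The 15 B cell genes had a summed level of 5.83 to 7.74 CPM in Cont, 9.06 to 11.8 CPM at 10 d and 0.391 to 0.675 CPM at 20 d, and of the 13 tested 3 were higher and 0 lower at 10 d and 12 were lower at 20 d against Cont. Replicate 1 of 10 d had the lowest neutrophil sum (10.4 CPM), the lowest monocyte sum (3.87 CPM) and the lowest *Lpcat2* (0.0440 CPM) and *Acsl5* (0.454 CPM) of the 10 d libraries. In Cont, replicate 1 was likewise lowest in all of these, with 44.2, 39.6, 0.487 and 0.646 CPM. At 20 d, replicate 1 had the lowest sums (2.93 and 1.37 CPM). *Lpcat2* had 0.0601 CPM in replicate 1 and 0.0567 CPM in replicate 4 of 20 d, from 4 counts each, so their order is not resolved. *Acsl5* was lowest in replicate 3 of 20 d (0.186 CPM, 12 counts), which had the highest sums (7.60 and 3.05 CPM). The part of these markers in the changes of *Acsl5* and *Lpcat2* was not tested, and in bulk RNA fewer cells of a type and less RNA per cell cannot be told apart. The summed level of the platelet genes was 1.04 to 1.52 CPM in Cont, 4.15 to 5.55 CPM at 10 d and at most 1.22 CPM at 20 d.

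**Figure D4:**
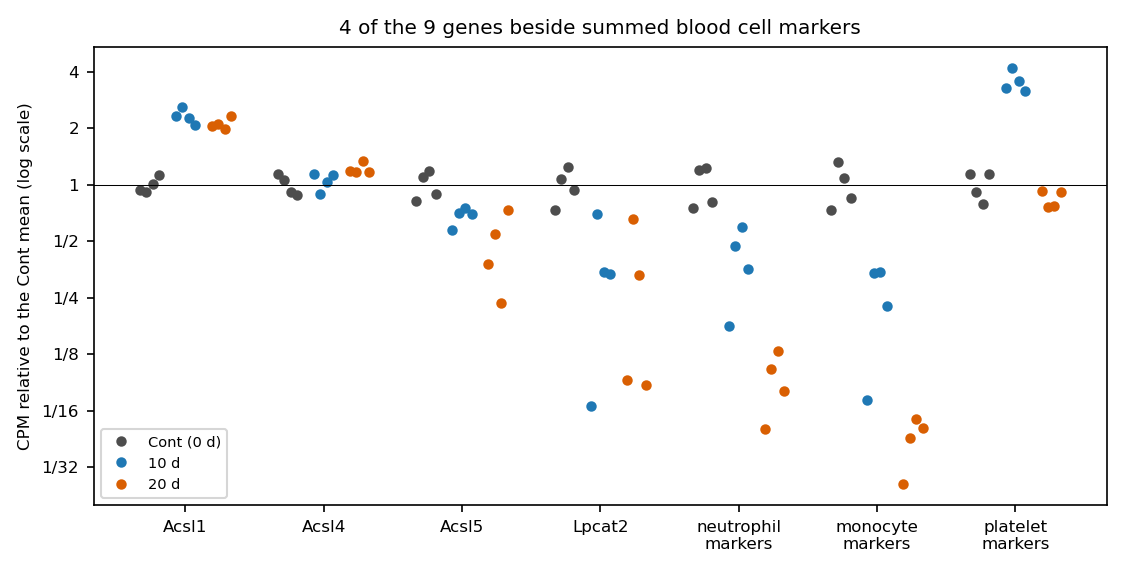
*Acsl1*, *Acsl4*, *Acsl5* and *Lpcat2* beside the summed levels of neutrophil, monocyte and platelet markers, each divided by its mean in Cont (y axis, log scale), for every library of Cont, 10 d and 20 d. *Acsl1* stays above 1 in the stored libraries, while *Lpcat2* and both leukocyte sums lie below 1 in each of them. The sums of T cell, B cell and NK cell markers, which were also lower at 20 d than in Cont, are not drawn.

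Other genes of these pathways were counted in 6 lists with 131 symbols, of which 125 were in the table and 66 passed the filter. At 10 d, 7 of the 66 were higher and 3 lower than in Cont, where 7.87% of all genes tested were higher and 5.67% lower. With library size alone the split was 1 higher and 16 lower, where 98 of all 8382 genes tested were higher and 1899 lower. At 20 d, 8 were higher and 11 lower than in Cont, where 12.8% of all genes tested were higher and 21.1% lower. With library size alone 0 were higher and 19 lower at 20 d, where 99 of all 8382 genes tested were higher and 2910 lower. Between 20 d and 10 d, 3 were higher and 8 lower at 20 d, where 3.33% of all genes tested were higher and 12.6% lower. With library size alone 0 were higher and 7 lower in this comparison, where 69 of all 8382 genes tested were higher and 909 lower. The median log2 fold change of the 66 genes was −0.02, −0.07 and −0.05 in these comparisons, beside −0.00082, −0.0052 and −0.08 for all genes tested.

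In the list of phospholipases A and lysophospholipases, 3 of the 15 genes tested were higher and 2 lower at 20 d than in Cont. That was a share of 33.3% called beside 33.9% of all genes tested. The test among the 3 storage conditions called 4 of the 66 pathway genes, where it called 6.13% of all genes tested. Of these 4 genes, 3 were in this list. *Pnpla8*, a calcium-independent phospholipase A2, averaged 49.1 ± 1.64 CPM in Cont, 67.3 ± 4.91 CPM at 10 d and 72.6 ± 5.82 CPM at 20 d (SD, n = 4). It rose at 20 d (log2 fold change 0.56, SE 0.08, adjusted p = 1.85e-05 by edgeR), but with library size alone it had 0.18 and did not pass. *Pla2g7*, which degrades platelet-activating factor, fell at both times and averaged 3.39 ± 0.942 CPM in Cont, 1.08 ± 0.391 CPM at 10 d and 0.449 ± 0.176 CPM at 20 d. Its log2 fold change was −2.91 at 20 d (SE 0.30, adjusted p = 9.33e-07 by edgeR). *Pla2g2a*, a secreted phospholipase A2, rose at 10 d and did not pass the test at 20 d, with 0.0430 to 0.113 CPM in Cont, 0.337 to 0.739 CPM at 10 d and 0.0301 to 0.155 CPM at 20 d. Its log2 fold change was 2.99 at 10 d against Cont (SE 0.48, adjusted p = 0.000358 by edgeR) and −2.44 at 20 d against 10 d (SE 0.47, adjusted p = 0.00191). The platelet genes had median log2 fold changes of 2.39 and −2.34 in the same comparisons, and their part in the values of *Pla2g2a* was not tested.

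Of the 11 acyltransferases outside the LPCAT family that were tested, 4 were lower and 0 higher at 20 d than in Cont, where 21.1% of all genes tested were lower. At 10 d, 0 were called by edgeR, 3 had an unadjusted p under 0.05, and DESeq2 called 2 as lower, *Lpgat1* (adjusted p = 0.0251) and *Mboat7* (adjusted p = 0.0419). Of all 8382 genes tested, DESeq2 called 649 lower and 606 higher at 10 d. *Mboat7*, which acts on lysophosphatidylinositol, averaged 0.0932 ± 0.0398 CPM at 20 d, against 0.780 ± 0.308 CPM in Cont (SD, n = 4), and the log2 fold change was −3.04 (SE 0.46, adjusted p = 5.44e-05 by edgeR). *Lpgat1* and *Gpat3*, which act on lysophosphatidylglycerol and on glycerol 3-phosphate, had log2 fold changes of −4.65 and −3.67 at 20 d, from 5 and 7 counts over the 4 libraries of 20 d and 186 and 129 over those of Cont. For fatty acid activation outside the ACSL family only 2 of 16 genes were tested. *Aacs*, the acetoacetyl-CoA synthetase, fell at 20 d with 0.105 ± 0.122 CPM, against 0.634 ± 0.140 CPM in Cont (log2 fold change −2.58, SE 0.48, adjusted p = 0.000448 by edgeR), and *Acss1*, the mitochondrial acetyl-CoA synthetase, had −0.23 (adjusted p = 0.536).

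Of the 11 genes for acyl-carnitine, thioesterases and acyl-CoA binding that were tested, 2 were higher and 1 lower at 20 d than in Cont, a share of 27.3% called beside 33.9% of all genes tested. *Slc25a20*, the carnitine-acylcarnitine carrier of mitochondria, averaged 9.89 ± 0.960 CPM at 20 d, against 6.82 ± 0.693 CPM in Cont (SD, n = 4), and *Acbd5*, an acyl-CoA binding protein of peroxisomes, had 6.59 to 7.54 CPM, against 4.77 to 6.47 CPM in Cont. Their log2 fold changes of 0.54 (SE 0.10, adjusted p = 0.000446 by edgeR) and 0.41 (SE 0.10, adjusted p = 0.00418) were 0.16 and 0.02 with library size alone, which did not pass. *Acot7*, which splits acyl-CoA, fell at both times and had 0.613 to 1.25 CPM in Cont, 0.152 to 0.355 CPM at 10 d and 0.0301 to 0.210 CPM at 20 d.

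For head groups and sidedness of the membrane, most genes did not pass the test. Of the 14 genes of head group synthesis tested, 1 was higher and 2 were lower at 20 d than in Cont, a share of 21.4% called beside 33.9% of all genes tested. The higher one was *Ptdss2*, a phosphatidylserine synthase (log2 fold change 0.38, SE 0.13, adjusted p = 0.0285 by edgeR), which had 0.0074 with library size alone, and *Etnk1*, an ethanolamine kinase, was lower with −1.09 (SE 0.25, adjusted p = 0.00219). *Chka*, a choline kinase, averaged 0.143 ± 0.0295 CPM in Cont, 0.367 ± 0.111 CPM at 10 d and 0.143 ± 0.114 CPM at 20 d (SD, n = 4), and its value at 10 d against Cont did not pass by edgeR (adjusted p = 0.0595) but passed by DESeq2 (adjusted p = 0.0434). Of the 13 flippases, scramblases and related carriers tested, 2 were higher and 1 was lower at 20 d, a share of 23.1% called. *Mfsd2b*, which exports sphingosine 1-phosphate from mouse red cells, averaged 1.10 ± 0.198 CPM in Cont, 1.77 ± 0.239 CPM at 10 d and 1.80 ± 0.0637 CPM at 20 d. Its log2 fold change at 20 d was 0.72 (SE 0.15, adjusted p = 0.00142 by edgeR), and 0.33 with library size alone, which did not pass. *Atp9b*, a member of the flippase family, had 0.32 at 20 d against Cont (SE 0.08, adjusted p = 0.00707), which turned to −0.07 with library size alone, and *Atp8b4* of the same family had −1.80 (SE 0.38, adjusted p = 0.00118).

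**Figure D5:**
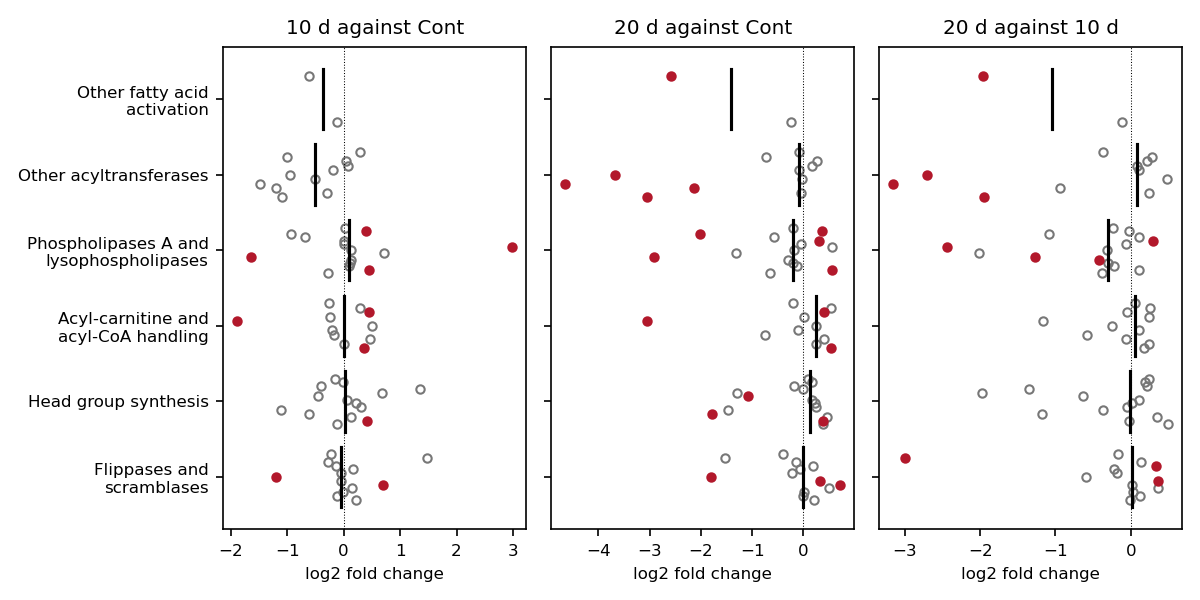
Log2 fold changes (x axis) of the tested genes of the 6 lists (rows), with a panel for each pair of storage conditions. Filled points passed an adjusted p under 0.05 by edgeR, open points did not, and the vertical bar is the median of the list. The 11 genes called lower at 20 d against Cont reach further from 0 than the 8 called higher. The standard errors were 0.25 to 0.76 for the 11 and 0.06 to 0.15 for the 8, so smaller changes could pass among the 8.

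The genes whose log2 CPM over the 12 libraries was most like that of *Acsl1*, among 1338 genes with a mean of at least 5 CPM, were *Cmpk2* (Pearson r = 0.989), *Ankle2* (0.981), *Supt4h1* (0.971), *Rsad2* (0.970) and *Gpx1* (0.969). The libraries share their storage conditions, so these correlations are a description. *Gpx1*, a glutathione peroxidase, averaged 222 ± 12.2 CPM in Cont, 530 ± 37.1 CPM at 10 d and 522 ± 28.9 CPM at 20 d (SD, n = 4). *Rsad2*, an interferon-induced gene, averaged 291 ± 34.1 CPM in Cont, 635 ± 24.0 CPM at 10 d and 595 ± 15.2 CPM at 20 d. *Ankle2*, a protein of the nuclear envelope, averaged 11.0 ± 0.523 CPM in Cont, 25.0 ± 2.90 CPM at 10 d and 22.4 ± 1.85 CPM at 20 d. Of the other genes of the set, *Acsl4* had r = 0.302 with *Acsl1* and *Lpcat3* had 0.265, while *Lpcat2* had −0.676 and *Acsl5* had −0.565.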

How the data were processed

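Rat RBC libraries of Cont, 10 d and 20 d were compared, with 4 libraries each. The authors mapped paired reads of 36 bases to mRatBN7.2 (annotation 105) in CLC Genomics Workbench 22.0 and deposited raw read counts per gene, which sum to 65735930 to 85996710 per library. The deposited TPM and RPKM values are per gene length, and TPM was used for levels between genes and RPKM only for their order. Counts rather than molecules were deposited, so low counts carry counting error beside the spread between libraries. The deposited CPM values and the columns of the authors' comparisons, which hold fold changes, p-values, FDR and Bonferroni values and group means, were not used.

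The counts were fitted with edgeR 4.0.16 under R 4.3.3. Genes were kept by filterByExpr, libraries were scaled by TMM (factors of 1.03 to 1.30 for Cont libraries, 0.859 to 0.985 for 10 d libraries and 0.864 to 0.949 for 20 d libraries), and the quasi-likelihood F-test was used in 1 model of the 3 groups. P-values were adjusted by Benjamini-Hochberg over all 8382 genes tested. Pairs were called at an adjusted p under 0.05, and the test among the 3 groups at 0.0001. Log2 CPM for correlations carry a prior count of 2. Named genes are the 9 members, the 3 genes of each of the 6 pathway lists with the smallest p among the 3 groups, and the 5 genes most correlated with *Acsl1* among those with a mean of at least 5 CPM. The members and lists were chosen with earlier results of these data known. Alternatives were DESeq2 size factors, library size alone, DESeq2 1.42.0, the edgeR likelihood ratio test, no filter beyond 1 count, a filter of 1 CPM in 4 libraries, the replicate number as a block and leaving out each library. The fit was tested on simulated data. Tables were made in pandas 2.3.3 and numpy 2.4.6, and plots in matplotlib 3.10.9 (Python 3.11.15). Promoter sequences are from RefSeq (GRCr8).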

Additional observations from a re-analysis of the deposited data

Results flagged for a closer look

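*Acsl4* stood out within the 20 d group, where replicate 3 had 5.07 CPM and lay apart from the other 20 d libraries at 4.39, 4.44 and 4.48 CPM. Its gap to the nearest library was 0.872 of the range of the group. Among 27 groups of 4 libraries, 1 was flagged, where groups without spread or with at most 3 counts in all could not be flagged. Chance flags about 1 in 20 of the groups that could be. Without replicate 3 of 20 d, the log2 fold change of *Acsl4* at 20 d against Cont was 0.24 (adjusted p = 0.137 by edgeR).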

How the results depend on the processing

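With library size alone, the members other than *Acsl1* called at 10 d against Cont were 3, against 0 with TMM, and 1 was called with DESeq2, with no filter on low counts and with the replicate block (*Lpcat2*, adjusted p = 0.00385 with the block). Of all 8382 genes tested at 10 d, library size alone called 98 higher and 1899 lower, DESeq2 606 and 649, and the block 928 and 639. Without a filter 710 were higher and 630 lower of 21531 genes. Leaving out each library gave 0 to 1 at 10 d and 1 to 3 at 20 d against Cont. The filter of 1 CPM left 3 of these members to test and 0 called at 20 d, and without a filter 1 (*Lpcat2*) was called among the 3 storage conditions. Of the pathway genes, library size alone called 17 at 10 d against Cont and 7 at 20 d against 10 d, the replicate block called 16 at 10 d, and the filter of 1 CPM left 25 genes and called 7 at 20 d against Cont and 5 at 20 d against 10 d. At 20 d against 10 d, library size alone called 69 of all 8382 genes higher and 909 lower. Of 3817 genes left by the filter of 1 CPM, 376 were higher and 643 lower at 20 d against Cont, and 222 and 455 at 20 d against 10 d. *Acsl1* at 10 d had a log2 fold change of 0.86 with library size alone and 1.08 with the filter of 1 CPM, at 20 d 0.69 and 0.91, and leaving out each library gave 1.16 to 1.27 and 1.04 to 1.17.

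Signs turned with library size alone for *Acsl3* at 20 d (−0.10), *Acsl4* at 10 d (−0.28) and 20 d (−0.094) and *Lpcat3* at 10 d (−0.32) and 20 d (−0.24), and with the filter of 1 CPM for *Acsl4* at 10 d (−0.065) and *Lpcat3* at 10 d (−0.096) and 20 d (−0.032). *Lpcat3* at 10 d was −0.012 with DESeq2 and with its size factors, and *Lpcat1* at 20 d was 0.065 with no filter. Leaving out each library gave −0.044 to 0.11 for *Lpcat1* at 20 d, −0.054 to 0.12 for *Lpcat3* at 10 d, and −1.10 to 0.22 for *Lpcat2* at 20 d against 10 d, where 0.22 is without replicate 2 of 10 d. *Acsl4* at 20 d against Cont passed with no filter (adjusted p = 0.0396), with the block (0.0386), and without replicate 1 or 2 of Cont (0.0149 and 0.0418) or 10 d (the lower at 0.0413). *Acsl5* at 20 d passed in each of the 12 fits that left out a library (adjusted p up to 0.0308) and could not be tested with the filter of 1 CPM. The cause of these shifts was not tested.

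Same-numbered libraries did not deviate together throughout, since 5 of 12 correlations of their deviations were over 0.1 (0.0167 to 0.214, median 0.0930, against a median of −0.0319 for other numbers), so the numbers were not taken as a pairing, although 9 of 12 libraries correlated best with their own number. Depth limits *Acsl6*, *Lpcat4* and, with 3 to 33 counts per stored library, *Lpcat2*.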

Other observations

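The summed levels of T cell and NK cell markers were lower at both times than in Cont. The 12 T cell genes had 4.46 to 5.15 CPM in Cont, 0.967 to 1.16 CPM at 10 d and 0.124 to 0.255 CPM at 20 d. The 5 NK cell genes in the table had 0.612 to 1.05 CPM in Cont, 0.147 to 0.502 CPM at 10 d and 0.0283 to 0.105 CPM at 20 d.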
